A study of Mus musculus with 12 samples.

Results

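Sclerostin, the product of Sost, and the other secreted antagonists of WNT signalling were followed here in Ocy454 cells, a mouse osteocyte cell line. The set held 10 genes, chosen by name and Ensembl gene ID among the 37583 gene IDs counted: Sost, Dkk1, Dkk2, Dkk3, Sfrp1, Sfrp2, Sfrp4, Frzb, Wif1 and Lrp4. RNA-seq was performed on 12 libraries, 3 for each combination of cell line and treatment. Control cells carried the genotype given as original cells, and DKO cells the one given as a deletion of HDAC4 and HDAC5. Cells of each line were either left static or given FFSS (fluid flow shear stress), and the time point of all libraries was 3 h. The study's methods state that FFSS was applied by orbital rotation of the dishes on a heated mixing platform, that every experiment used a sub-clone of Ocy454 cells grown from a single cell, and that genes were deleted by lentiviral Cas9 and guide RNAs. The labels do not say whether the 3 libraries of a group came from separate cultures, so p-values measure only the spread between these samples. Nor do they say whether the DKO libraries came from a single clone, and the effect of the deletion and other differences between the lines cannot be told apart.

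WNT ligands signal by bringing a Frizzled receptor together with LRP5 or LRP6, which stabilises beta-catenin and turns on genes such as Axin2. The antagonists act outside the cell at different steps: sclerostin, DKK1 and DKK2 bind LRP5 and LRP6, whereas the SFRP proteins, FRZB and WIF1 bind the WNT ligands themselves. LRP4, a membrane receptor of the same family as LRP5 and LRP6, binds sclerostin and aids its action, and sclerostin made by osteocytes restrains bone formation.

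The promoter sequences of the genes that differed most between the lines are shown first, since all 4 were called higher in DKO cells. RefSeq promoters (GRCm38.p6) were found for 6 of the 10 genes: Sost, Dkk1, Dkk2, Sfrp2, Frzb and Wif1. The 250 bases before the annotated start are printed 5′ to 3′ on the strand of the gene, for chr11:101967016-101967265 (minus strand, Sost), chr19:30549497-30549746 (minus strand, Dkk1), chr2:80447397-80447646 (minus strand, Frzb) and chr10:121033754-121034003 (plus strand, Wif1). Capitals mark 3 motifs, each read on either strand. The first, TATAAA, is the box that the basal transcription machinery binds near a start. The next, CTTTGA, is the core of the motif of the TCF and LEF factors, through which beta-catenin acts. The last, TGTGGT, is the core of the motif of the RUNX factors, which govern bone cell genes.
Sost: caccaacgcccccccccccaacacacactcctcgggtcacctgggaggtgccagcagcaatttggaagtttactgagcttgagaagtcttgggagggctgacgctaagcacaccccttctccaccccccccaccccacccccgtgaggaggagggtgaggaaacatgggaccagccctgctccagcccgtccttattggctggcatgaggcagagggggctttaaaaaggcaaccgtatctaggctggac
Dkk1: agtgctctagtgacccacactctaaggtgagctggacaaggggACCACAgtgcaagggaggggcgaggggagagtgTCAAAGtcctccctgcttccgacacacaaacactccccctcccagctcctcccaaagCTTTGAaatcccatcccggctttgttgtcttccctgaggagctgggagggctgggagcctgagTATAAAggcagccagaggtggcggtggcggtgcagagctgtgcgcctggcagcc
Frzb: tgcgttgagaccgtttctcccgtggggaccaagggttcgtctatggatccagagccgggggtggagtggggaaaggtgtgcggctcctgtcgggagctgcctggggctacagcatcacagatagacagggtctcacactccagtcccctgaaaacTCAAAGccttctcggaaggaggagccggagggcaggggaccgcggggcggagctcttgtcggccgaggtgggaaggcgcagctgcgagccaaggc
Wif1: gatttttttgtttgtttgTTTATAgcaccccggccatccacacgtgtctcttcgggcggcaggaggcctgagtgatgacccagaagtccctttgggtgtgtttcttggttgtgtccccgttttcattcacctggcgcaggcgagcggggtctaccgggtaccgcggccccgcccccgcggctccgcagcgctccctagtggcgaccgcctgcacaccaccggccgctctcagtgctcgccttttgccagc

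The promoter of Dkk1 held TATAAA from -54 to -49, counted from the start, the TCF/LEF core at 2 places (from -174 to -169 and from -117 to -112) and the RUNX core from -207 to -202. That of Frzb held the TCF/LEF core from -95 to -90, and that of Wif1 held the TATA letters far from the start, from -232 to -227. The promoter of Sost held none of the 3 motifs in this window. The MEF2 motif was in 0 of the 6 promoters, and the E-box CANNTG, which was not put in capitals, was in those of Sost, Frzb and Wif1. The study's introduction places the binding of MEF2C to Sost at an enhancer downstream of the gene, outside this window. Of the 32851 promoters of the same length, 12.4% held TATAAA, 13.8% CTTTGA, 14.1% TGTGGT, 66.2% CANNTG and 2.92% the MEF2 motif. GC content was 61.2% for Sost, 60.8% for Dkk1, 64.4% for Frzb and 62.8% for Wif1, beside a median of 52.4% over all promoters. Matches of letters are descriptions of the sequence and were not tested against expression.

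In the mm9 annotation used for the counts, all 10 genes are protein coding. Sost lies at chr11:101823772-101828329 on the minus strand and has 2 exons, and its nearest protein-coding neighbour is Dusp3, 4.1 kb away. Dkk1 lies at chr19:30620353-30624155 (minus), Dkk2 at chr3:131748256-131843257 (plus), Dkk3 at chr7:119259533-119302571 (minus) and Lrp4 at chr2:91297668-91354058 (plus). The binders of WNT ligands lie at chr8:24521974-24560104 (plus, Sfrp1), chr3:83570243-83578238 (plus, Sfrp2), chr13:19714973-19724863 (plus, Sfrp4), chr2:80252127-80287782 (minus, Frzb) and chr10:120471016-120537706 (plus, Wif1). Only Sfrp2 shares exon bases with another gene, 347 bases with Gm16790 on the opposite strand, and Gm16790 had at most 6 counts in any library.

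The libraries held 17.6 to 19.2 M reads assigned to genes. Thus 3 counts, the limit that a count of 0 allows, equal 0.156 to 0.171 counts per M assigned reads, unscaled. The counts give reads, not molecules, so such limits cover counting error only. CPM values are counts per M of the library total after scaling by a normalisation factor (TMM), from 0.944 to 1.13 over the libraries. Hdac5 was at 2421 to 2706 counts in static control libraries and at 1461 to 1634 in static DKO libraries, and under FFSS, at 1457 to 1755 and 1553 to 1687 counts, its difference of 0.19 on the log2 scale did not pass edgeR's quasi-likelihood test (adjusted p = 0.0512); without control FFSS replicate 1 Hdac5 was higher in DKO FFSS cells by 0.27 (edgeR adjusted p = 0.000487). The annotation gives Hdac4 under 2 IDs, which went from 404 to 473 and 458 to 550 counts in static control libraries to 311 to 325 and 220 to 309 counts in static DKO libraries. Reads over these genes remain in DKO cells, and small deletions were not assessed. Control FFSS replicate 1 stood apart: its counts differed from those of replicates 2 and 3 by a chi-square per degree of freedom of 63.8 and 58, whereas all other pairs within a group were between 2.02 and 6.45. It lay within the range of the control static libraries for Wif1 and near the other FFSS replicates for Sfrp4. Whether it was mixed with another sample or mislabelled was not tested, its label was kept, and the changes with FFSS in control cells hold only as far as that label does. Calls of the set and of the pathway lists that changed without it are given both ways. Of the osteocyte markers, Dmp1, Phex and Mepe were far higher in DKO than control static cells (10068 to 11027 counts against 444 to 714 for Dmp1), Pdpn was lower, and Fgf23 had at most 1 count in any library.

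Which antagonists the cells made was read first per length, as RPKM (CPM per kb of exon length), on which genes can be compared. In control static cells Wif1 stood highest at 80.5 RPKM, followed by Sfrp2 at 29.2, Lrp4 at 22.4 and Dkk3 at 5.65, with no overlap between neighbours in this order over the 3 libraries. Sost came next at 2.59 RPKM on average with a range from 0.716 to 6.01, which overlapped that of Dkk3. Dkk1, Sfrp4 and Frzb were at 0.383, 0.251 and 0.200 RPKM, and neighbours among these overlapped. In DKO static cells the order was different, with Sost first at 998 RPKM, then Wif1 at 570 and Sfrp2 at 101. Dkk1 (37.4 RPKM), Dkk3 (25.8) and Lrp4 (22.0) followed without overlap, Frzb (19.1) overlapped Lrp4, and Sfrp4 was last of those detected at 0.209 RPKM.

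Summed over the secreted antagonists without Lrp4, the level was 119 ± 8.98 RPKM in control static cells (mean ± SD, n = 3) and 82.7 ± 24.4 under FFSS (110.2, 63.8 and 74.1 in replicates 1 to 3), and in DKO cells 1752 ± 20.6 when static and 1615 ± 74.0 under FFSS. Sost made up 1.78% of the summed RPKM of all 10 genes in control static cells (0.497% to 4.05% over the libraries, and 0.643% on average without replicate 3) and 56.3% in DKO static cells. Wif1 made up 56.9% and 32.1%, and Sfrp2 20.8% and 5.68%. The plot of summed levels gives the make-up of every library.

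**Figure D1:**
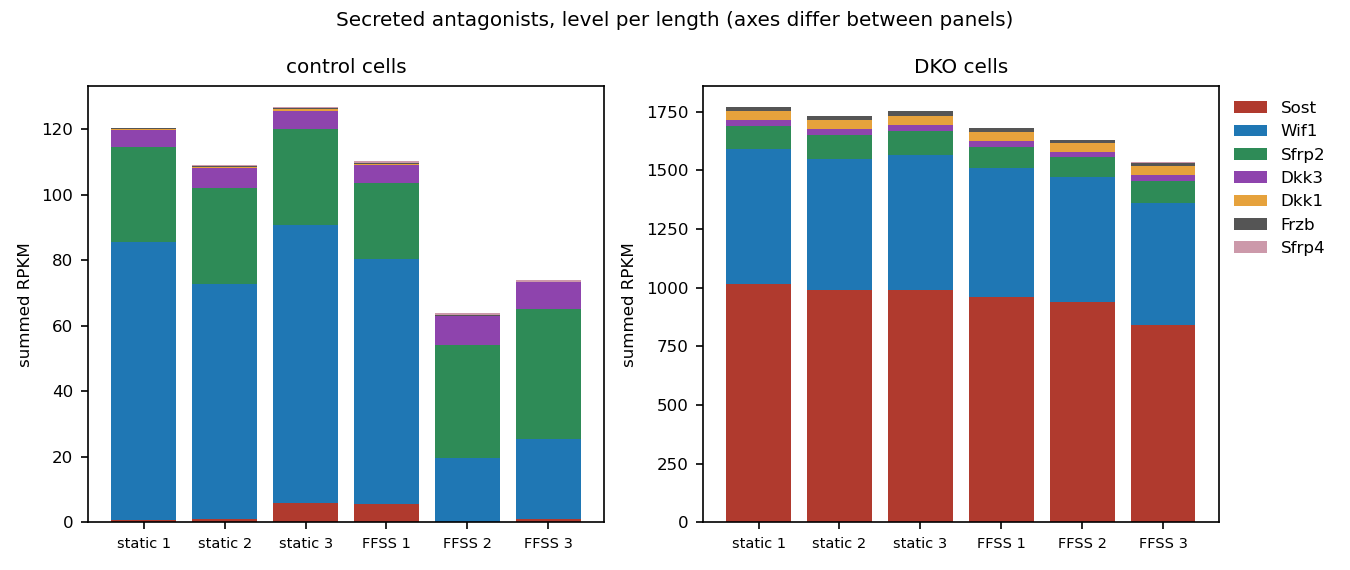
Summed level of the 7 detected secreted antagonists in each library, in RPKM, as stacked bars that start at 0 (control cells left, DKO cells right, with different vertical axes). Wif1 and Sfrp2 make up most of each control bar, and Sost and Wif1 most of each DKO bar.

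Dkk2 and Sfrp1 were at or near 0. Dkk2, an LRP5 and LRP6 binder like Dkk1, had 0 counts in all 12 libraries. Over 224.3 M assigned reads this allows a level of up to 0.0134 counts per M, unscaled. Sfrp1, a soluble binder of WNT ligands, had 1 count in each of DKO FFSS replicates 1 and 2 and 0 in the others. The study's filter, which removes genes with 0 counts in 2 or more libraries, left 14904 genes, among them the other 8 genes of the set.

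The comparison of DKO with control cells asked how the antagonists differ between the lines. Under static conditions 6 of the 8 tested genes were higher in DKO cells: Sost, Dkk1, Frzb, Wif1, Dkk3 and Sfrp2. In CPM Dkk1 and Frzb were the lowest of these in control static cells and Wif1 the highest, and Sost varied most between the control libraries. A call needed a change of more than 2-fold with an adjusted p under 0.05, which held for 15.3% of all genes tested, and for 7.98% in the higher direction. Lrp4 and Sfrp4 were not called.

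Sost, the sclerostin gene, had 28, 41 and 236 counts in control static replicates 1 to 3 and 38134, 37343 and 36753 in the DKO static replicates. Every DKO library was far above every control library, and within the control group replicate 3 stood well above the others. In CPM this was 5.35 ± 6.14 against 2063 ± 30.2 (mean ± SD, n = 3), a log2 difference of 8.59 ± 1.03 (SE, edgeR's quasi-likelihood test, adjusted p = 9.8e-05). Under FFSS the control replicates were at 221, 2 and 46 counts and the DKO replicates at 35853, 32564 and 31121, with a log2 difference of 8.70 ± 1.04 (edgeR adjusted p = 9.02e-05) that was 10.63 without control FFSS replicate 1. With 2 to 236 counts on the control side the size of this difference was loosely fixed, and it ran from 8.15 to 10.15 for static cells when single libraries were left out.

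Dkk1, an inhibitor that removes LRP5 and LRP6 from the WNT receptor complex, had 13, 13 and 27 counts in the static control replicates against 1658, 1576 and 1706 in the static DKO replicates. The groups did not overlap, and control replicate 3 was again the highest of its group. The log2 difference was 6.60 ± 0.26 (SE, edgeR adjusted p = 3.21e-09). Under FFSS Dkk1 was at 19, 2 and 5 counts in control and at 1685, 1559 and 1734 in DKO replicates, a log2 difference of 7.74 ± 0.29 (edgeR adjusted p = 2.08e-09), or of 9.04 without control FFSS replicate 1. Dkk3, a divergent member of the family whose part in WNT signalling is less settled, had 337, 396 and 350 counts in the static control replicates against 1537, 1603 and 1575 in those of DKO cells. It was thus well expressed in both lines and without overlap between them, with a log2 difference of 2.19 ± 0.14 (edgeR adjusted p = 4.15e-08), and of 1.63 ± 0.14 under FFSS (edgeR adjusted p = 4.82e-07).

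Among the binders of WNT ligands, Frzb changed most. It had 5, 11 and 21 counts in the static control replicates against 1165, 1018 and 1180 in those of DKO cells, and the groups lay far apart. The log2 difference was 6.56 ± 0.22 for static cells (edgeR adjusted p = 1.15e-10; 7.18 without control static replicate 3) and 6.76 ± 0.24 under FFSS (edgeR adjusted p = 1.46e-10).

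Wif1 was the most abundant antagonist of control static cells, at 3902, 3338 and 3911 counts, and was higher still in DKO static cells, at 25496, 24607 and 25175. The log2 difference was 2.82 ± 0.44 (SE, edgeR adjusted p = 0.000558) and the groups did not overlap. Under FFSS it was 3.75 ± 0.46 (edgeR adjusted p = 0.000115), or 4.60 without control FFSS replicate 1. Sfrp2 had 1175, 1219 and 1201 counts in the static control replicates against 3737, 4021 and 4039 in those of DKO cells. Its replicates were close to each other, and its log2 difference of 1.78 ± 0.15 (edgeR adjusted p = 1.2e-06) was the smallest among the 6 genes called. Under FFSS it was 1.47 ± 0.15 (edgeR adjusted p = 5.52e-06).

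Sfrp4 and Lrp4 did not share this pattern under static conditions. Sfrp4, another soluble Frizzled-like protein, was low everywhere, with 15, 26 and 17 counts in the static control replicates against 13, 19 and 14 in those of DKO cells. The groups overlapped, and the log2 difference was -0.26 with a 95% interval from -0.87 to 0.34 (edgeR adjusted p = 0.504). Lrp4, the sclerostin-binding receptor, had 4780, 4470 and 4359 counts in the static control replicates against 3890, 4555 and 4282 in those of DKO cells, a log2 difference of -0.03 with an interval from -0.41 to 0.35 (edgeR adjusted p = 0.923). These ranges overlapped as well. Of the 8 genes, 6 did not overlap between the static groups, as did 69.0% of all genes tested, and 6 passed the adjusted p with no limit on the fold, as did 54.2%.

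Under FFSS the same 6 genes were called higher in DKO cells (background 17.2%, or 8.25% in the higher direction). Lrp4 was also higher by 0.82 ± 0.20 (edgeR adjusted p = 0.00476) and Sfrp4 lower by a log2 difference of -0.64 ± 0.25 (edgeR adjusted p = 0.041), both within 2-fold. All 8 genes passed the adjusted p in edgeR, beside 56.6% of all genes, although Sfrp4 did not pass under 10 alternatives (up to an adjusted p of 0.191 without DKO FFSS replicate 1), DESeq2 among them (0.0791), and all 8 did not overlap between the groups, beside 58.4% of all genes. Without control FFSS replicate 1 the differences of Dkk3 (1.44), Sfrp2 (1.28), Frzb (7.08) and Sfrp4 (-0.64) still passed the adjusted p, that of Lrp4 was 1.14 (edgeR adjusted p = 5.26e-08) and 7 genes were called, beside 20.1% of all genes tested in that fit.

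**Figure D2:**
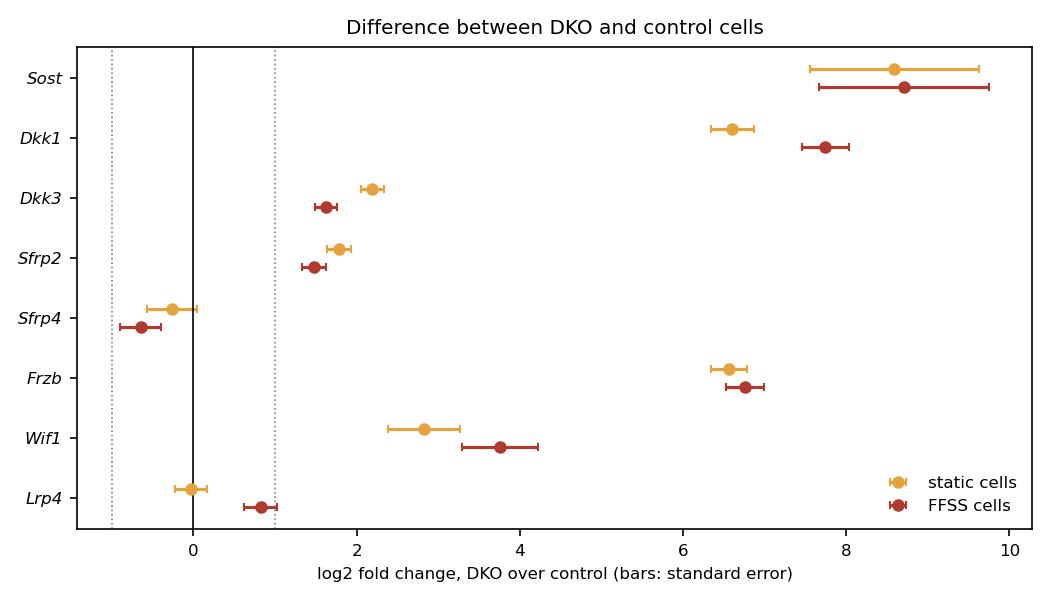
Log2 difference between DKO and control cells (horizontal axis) for the 8 tested genes, under static conditions and under FFSS, with standard errors as bars and dotted lines at a 2-fold change. Sost, Dkk1 and Frzb lie above 6 and Wif1, Dkk3 and Sfrp2 between 1.47 and 3.75, whereas Sfrp4 and Lrp4 lie within the dotted lines.

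Other cell type markers moved with the lines. The chondrocyte markers summed to 79.2 to 104.7 CPM in control static and 2361 to 2949 CPM in DKO static libraries, and 4 of 6 were called higher (Col2a1, Col10a1, Sox9 and Comp), beside 15.3% of all genes called and 7.98% called higher. The osteocyte markers without Sost summed to 76 to 105 CPM in the former and 1504 to 1640 CPM in the latter, with Dmp1, Mepe and Phex called higher and Pdpn lower. The osteoblast markers summed to 30510 to 36880 CPM and 96330 to 107800 CPM. Most of this was Col1a1 (mean 17130 CPM in control static and 50460 in DKO static cells) and Col1a2 (12430 and 39390). Of the 7 tested 3 were called higher, Bglap, Col1a2 and Col1a1, whereas Ibsp, Sp7, Runx2 and Alpl were not called. The haematopoietic markers, of which Ptprc had at most 3 counts, summed to 23.9 to 28.6 CPM and 2.81 to 3.29 CPM, with Cd68 called lower and Csf1r higher, and the adipocyte and muscle markers stayed under 11 CPM in all libraries, with Myog at 0. Fabp4, the 1 adipocyte marker tested, was called lower in DKO cells, by a log2 difference of -1.74 for static cells and -2.12 under FFSS. The part of these differences in those of the antagonists was not tested, and in bulk RNA more cells of a type and more RNA per cell cannot be told apart.

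The low levels of Sost in control cells were set beside those of 2 cartilage collagens, chosen after their values were seen. Relative to its mean in DKO static cells, Sost was at 0.0718%, 0.104% and 0.602% in control static replicates 1 to 3 and at 0.551%, 0.00473% and 0.110% in control FFSS replicates 1 to 3. Col2a1, the collagen of cartilage, was at 0.0523%, 0.0544% and 0.501% and at 0.638%, 0.0429% and 0.144%. Col10a1, the collagen of hypertrophic chondrocytes, was at 0.105%, 0.0346% and 0.481% and at 0.495%, 0.0487% and 0.263%. All 3 genes were highest in static replicate 3 and FFSS replicate 1. Dkk1 (1.57% and 1.08%) and Frzb (1.79% and 0.997%) also had their highest values there. Both collagens belong to the 20 genes with the largest difference between the lines at 100 CPM or more in each DKO static library, and among the 18 of these that are not in the set static replicate 3 was more than 2-fold above both other static replicates for 5 (Col2a1, Col10a1, B3galt2, Col4a2 and Col4a1). For the other 13 it was at 0.913 to 1.37 times the higher of them, as for Serpine2 (5.55%, 6.21% and 6.75% in static replicates 1 to 3). Over the 6 control libraries, 9 of the 18 were highest in static replicate 3 and 6 in FFSS replicate 1. In FFSS replicates 1 to 3 Col4a2 was at 0.719%, 0.722% and 1.01% and Col4a1 at 0.947%, 0.607% and 0.935%. Neither stood out in FFSS replicate 1. The 5 genes more than 2-fold higher in static replicate 3 were also the lowest of the 18 in control static cells. They were at 0.994% or less against 2.43% or more for the other 13, so the split went with the level in control cells. Carry-over of DKO cells or RNA into these control libraries was not tested as a source of these reads, and the control levels of Sost, Dkk1 and Frzb hold whatever part it has.

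**Figure D3:**
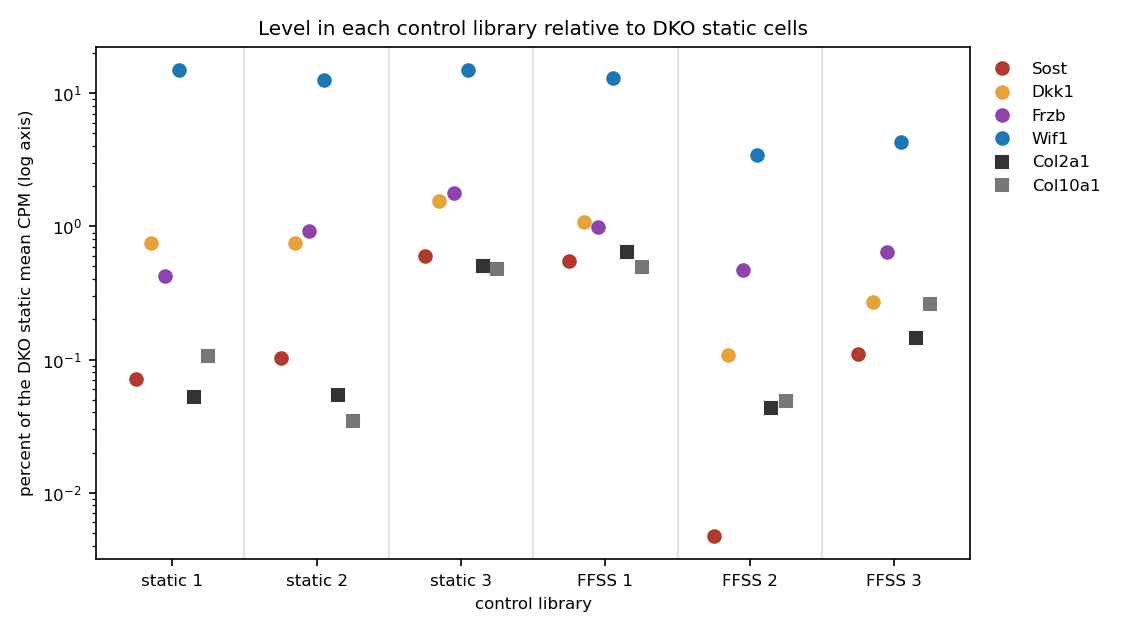
Level in each of the 6 control libraries as a percentage of the DKO static mean (log axis) for Sost, Dkk1, Frzb, Wif1 and 2 cartilage collagens. Sost, Col2a1 and Col10a1 are at 0.481% to 0.638% in static replicate 3 and FFSS replicate 1 and at 0.263% or less in the others, whereas Wif1 is much higher throughout.

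FFSS in control cells asked which antagonists respond to fluid flow within 3 h. Sfrp4 was the only gene of the set called, and it rose from 15, 26 and 17 counts in static to 47, 47 and 49 in FFSS replicates. All FFSS libraries were above all static libraries, with 1.01 ± 0.30 CPM against 2.38 ± 0.07 CPM (mean ± SD, n = 3) and a log2 change of 1.22 ± 0.26 (SE, edgeR adjusted p = 0.00344). Calls were made for 5.93% of all genes tested, so that 1 of 8 is near the background.

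Lrp4 fell from 4780, 4470 and 4359 counts to 3392, 1789 and 2308, a log2 change of -0.93 ± 0.20 (edgeR adjusted p = 0.00579), just within 2-fold. The groups did not overlap, and FFSS replicate 1 had the smallest change. Dkk3 rose from 337, 396 and 350 counts to 359, 616 and 561, a log2 change of 0.43 ± 0.14 (edgeR adjusted p = 0.033). It did not pass under 8 alternatives, among them limma-voom (adjusted p = 0.0537), no filter (0.0627), the libraries of the comparison only (0.13) and 4 left-out libraries (0.0954 to 0.136). Replicate 1 lay within the static range, and replicates 2 and 3 above it. Thus 3 of 8 genes passed the adjusted p (35.8% of all genes did), and 2 of 8 did not overlap (41.3% of all genes).

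The remaining 5 genes did not pass. Wif1 went from 3902, 3338 and 3911 counts to 3541, 978 and 1197. Here FFSS replicate 1 lay within the static range and replicates 2 and 3 far below it, so that the mean change of -1.02 ± 0.43 on the log2 scale did not reach the threshold (edgeR adjusted p = 0.0931). Dkk1, at 13, 13 and 27 counts in static and 19, 2 and 5 in FFSS replicates, had a log2 change of -1.09 ± 0.54 (edgeR adjusted p = 0.134). Frzb, at 5 to 21 and 6 to 12 counts, had -0.58 ± 0.44, and Sfrp2, at 1175 to 1219 and 966 to 1716 counts, had 0.14 ± 0.15.

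For Sost itself no change was detectable in control cells. Its counts were 28, 41 and 236 in static and 221, 2 and 46 in FFSS replicates, so that each group spanned the other's middle value. The log2 change was -0.24 ± 1.02, with an interval from -2.25 to 1.76 (edgeR adjusted p = 0.878). Leaving out single libraries moved it between -2.17 (without FFSS replicate 1) and 1.32 (without static replicate 3), and without both it was -0.62 (edgeR adjusted p = 0.573).

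The changes by library show what replicate 1 decides. Against the static mean, the log2 CPM of Wif1 changed by -0.10, -2.03 and -1.71 in FFSS replicates 1 to 3, and that of Lrp4 by -0.45, -1.45 and -1.06. Sfrp4 changed by 1.20, 1.13 and 1.21, with no such gap. Without control FFSS replicate 1, edgeR called 4 of the 8 genes: Wif1 (-1.87, adjusted p = 1.02e-13), Lrp4 (-1.24, adjusted p = 3.69e-08), Dkk1 (-2.39, adjusted p = 0.000109) and Sfrp4 (1.21, adjusted p = 0.000376). In that fit 11.3% of all genes were called, against 5.93% with the library. Dkk3 (0.61, edgeR adjusted p = 1.59e-07) and Sfrp2 (0.34, edgeR adjusted p = 6.29e-05) passed the adjusted p within 2-fold, so that 6 of 8 passed it, beside 55.0% of all genes.

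**Figure D4:**
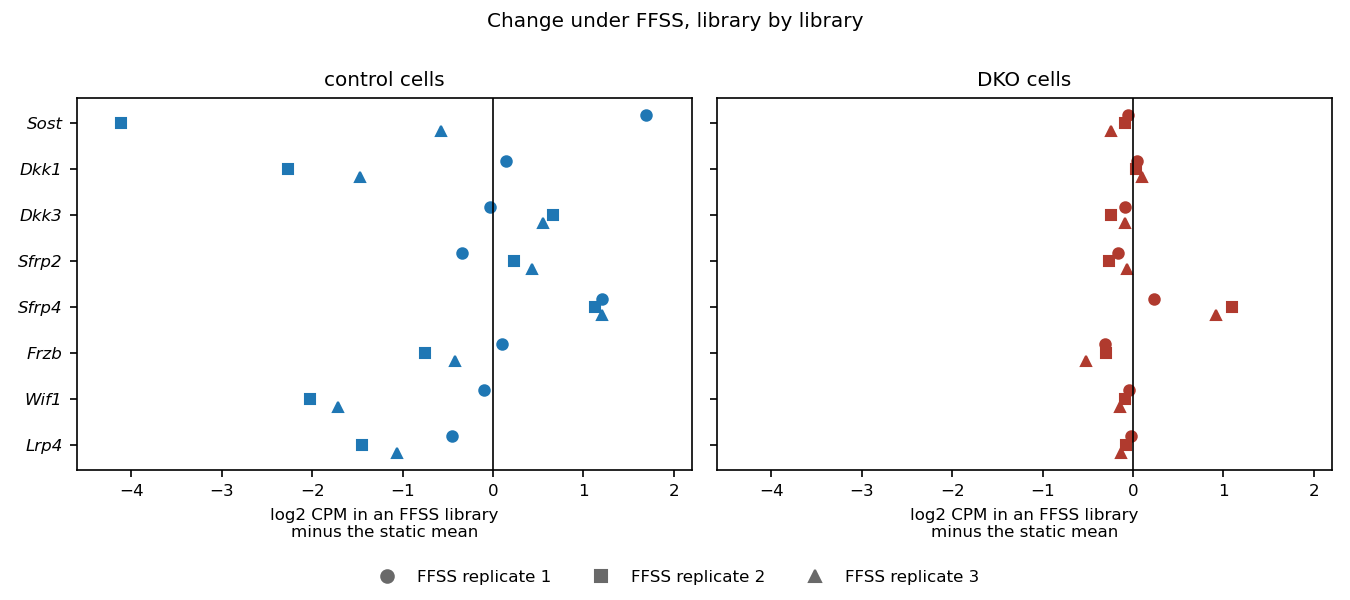
Log2 CPM in each FFSS library minus the mean log2 CPM of the static libraries of the same line, for control cells (left) and DKO cells (right), with the 3 replicates as separate symbols. In control cells replicate 1 lies near 0 for Wif1 while replicates 2 and 3 lie at -2.03 and -1.71, and in DKO cells Sfrp4 has the changes farthest above 0 and Frzb those farthest below.

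The share of reads outside annotated genes moved with these changes. It was 5.10% to 5.21% in control static, 5.87%, 9.19% and 10.04% in control FFSS replicates 1 to 3, 7.07% to 7.14% in DKO static and 7.94% to 8.56% in DKO FFSS libraries. With this share as a covariate the log2 change of Wif1 in control cells was 0.14 (edgeR adjusted p = 0.751), that of Lrp4 -0.37 (edgeR adjusted p = 0.244) and that of Sfrp4 1.20 (edgeR adjusted p = 0.0321), so that Lrp4 no longer passed. Dkk3 did not pass either (-0.11, edgeR adjusted p = 0.627), and Sfrp2 passed in the lower direction (-0.49, edgeR adjusted p = 0.000519). Dkk1 was at -0.27 (edgeR adjusted p = 0.818). In each line the share was higher in every FFSS library than in every static library. Fits with this covariate therefore cannot tell its effect from that of FFSS. The osteoblast markers, mostly Col1a1 and Col1a2, summed to 30510 to 36880 CPM in control static libraries. In control FFSS replicates 1 to 3 the sums were 31300, 10590 and 11190 CPM, so that replicate 1 alone lay within the static range. Of the 7 tested 2 were called lower, Sp7 and Col1a1 (background 5.93%). Of the other markers Csf1r was called higher by FFSS in control cells (1.43, at 5 to 8 and 12 to 24 counts). Pdpn (0.63), Runx2 (-0.66), Sox9 (-0.52) and Cd68 (-0.50) passed edgeR's adjusted p within 2-fold. The part of these markers in the changes of Wif1 and Lrp4 was not tested.

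In DKO cells FFSS gave no call among the antagonists. Sost went from 38134, 37343 and 36753 counts to 35853, 32564 and 31121, or from 2063 ± 30.2 to 1887 ± 128 CPM (mean ± SD, n = 3). Every FFSS library was below every static library, but the log2 change of -0.13 had an interval from -1.52 to 1.26 in the fit over all 12 libraries, which took the spread of the gene from control cells too (edgeR adjusted p = 0.969). None of the 8 genes was called by edgeR (background 0.0872%) or passed its adjusted p (background 0.872%), 2 had an unadjusted p under 0.05 (Frzb and Sfrp4, beside 13.5% of all genes), and limma-voom and DESeq2 called 0 as well, with 1 gene (Frzb) past the adjusted p in DESeq2. In edgeR fitted to the 6 static and FFSS libraries of DKO cells alone, Sost had -0.12 ± 0.042 (SE, adjusted p = 0.0608), and Frzb (-0.37, adjusted p = 0.000525) and Sfrp2 (-0.16, adjusted p = 0.0273) passed the adjusted p, beside 11.2% of all genes. With the share of reads outside genes as a covariate over all 12 libraries, Dkk3 (-0.31, edgeR adjusted p = 0.00671) and Sfrp2 (-0.37, edgeR adjusted p = 0.000119) passed it, beside 9.95% of all genes.

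Frzb went from 1165, 1018 and 1180 counts to 901, 841 and 769, a log2 change of -0.38 ± 0.14 (edgeR adjusted p = 0.235, and 0.0037 without control FFSS replicate 1). Sfrp4 was at 13, 19 and 14 and at 18, 32 and 30 counts, a log2 change of 0.84 ± 0.29 (edgeR adjusted p = 0.211). The Sfrp4 groups overlapped in CPM, by replicate 1 of FFSS. Wif1 went from 25496, 24607 and 25175 to 24212, 21779 and 22453 counts (-0.09 ± 0.41), and Lrp4 from 3890, 4555 and 4282 to 4165, 3716 and 3810 (-0.08 ± 0.19). Dkk1 (0.05), Dkk3 (-0.14) and Sfrp2 (-0.17) were also within 2-fold. Without control FFSS replicate 1, Frzb and Sfrp2 (edgeR adjusted p = 0.0368) passed the adjusted p, beside 10.5% of all genes. Of the 8 genes, 4 did not overlap between the groups in CPM (Sost, Dkk3, Frzb and Wif1, all lower under FFSS), beside 29.9% of all genes.

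Whether FFSS acted differently in the lines was tested as an interaction, the change in DKO cells minus that in control cells. None of the 8 genes was called by edgeR (background 0.651%) or passed its adjusted p (background 3.97%), and Dkk3 and Lrp4 had an unadjusted p under 0.05 (23.8% of all genes did). limma-voom and DESeq2 also called 0 (Lrp4 passed the adjusted p in DESeq2). The log2 difference was 0.85 ± 0.28 for Lrp4 (edgeR adjusted p = 0.112), -0.56 ± 0.19 for Dkk3 (0.11), 0.93 ± 0.59 for Wif1 (0.373), 1.14 ± 0.56 for Dkk1 (0.242) and 0.11 ± 1.24 for Sost (0.968). Without control FFSS replicate 1, 3 genes were called: Wif1 (1.77, edgeR adjusted p = 2.27e-11), Lrp4 (1.16, edgeR adjusted p = 3.52e-06) and Dkk1 (2.44, edgeR adjusted p = 0.000186). In that fit 7.6% of all genes were called, against 0.651% with the library. Dkk3 (-0.75, edgeR adjusted p = 4.56e-07) and Sfrp2 (-0.50, edgeR adjusted p = 1.87e-05) also passed the adjusted p, as did 37.6% of all genes. For Lrp4, Dkk3, Wif1 and Dkk1 the interaction was smaller with the share of reads outside genes as a covariate. The values were 0.49 (edgeR adjusted p = 0.204), -0.20 (0.411), 0.23 (0.668) and 0.63 (0.561), in that order.

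**Figure D5:**
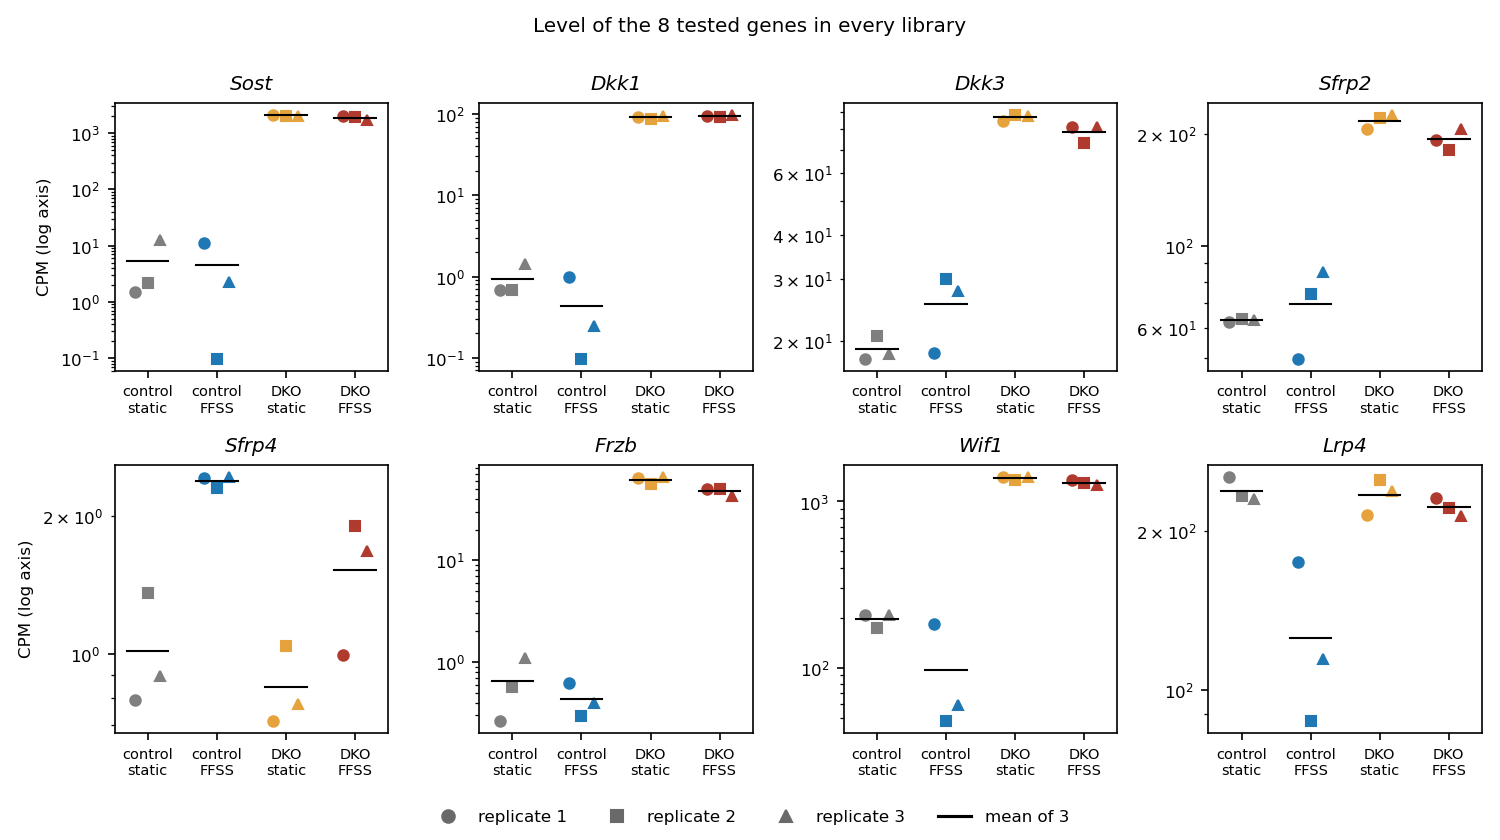
CPM of the 8 tested genes in every library (log axes with a range of their own in each panel), with replicates 1 to 3 as circles, squares and triangles and the mean of 3 as a line. The DKO groups lie above the control groups for all genes but Sfrp4 and Lrp4, and control FFSS replicate 1 lies near the static libraries for Wif1.

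The rest of the pathway was described over 5 lists, which share some genes and hold 55 gene IDs in all, of which 42 were tested. Canonical WNT feedback genes, which beta-catenin turns on in many tissues, were lower in DKO static cells: 8 of 12 tested were called lower and 0 higher (15.3% of all genes were called, in either direction), with a median log2 difference of -1.44 beside 0.01 over all genes tested. Axin2, a scaffold of the beta-catenin destruction complex, went from 814, 918 and 908 counts in static control replicates to 85, 79 and 79 in those of DKO cells (log2 difference -3.37, edgeR adjusted p = 2.1e-10). Nkd1, which restrains WNT signalling at Dishevelled, was at 311 to 338 and 2 to 3 counts, Nkd2 had a log2 difference of -4.39 and Apcdd1 of -4.04. In the other direction, Lef1 was higher but within 2-fold (0.94, edgeR adjusted p = 0.00028). Under FFSS 5 of 12 were called lower and 0 higher (background 17.2%), or 6 and 1 without control FFSS replicate 1 (background 20.1%). Over the 5 lists together edgeR, limma-voom and DESeq2 each called 18 of the 42 for static cells, beside 15.3% of all genes in the edgeR fit.

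Receptors and co-receptors moved both ways in DKO static cells, with 3 of 13 tested called higher and 2 lower (background 15.3%) and a median log2 difference of -0.07. Lrp5, the co-receptor that sclerostin and DKK1 bind, went from 3757, 3848 and 3978 counts in control replicates to 8357, 8961 and 8622 in DKO ones (log2 difference 1.23, edgeR adjusted p = 2.35e-06), whereas Lrp6 differed by 0.34. Fzd8 (1.53) and Fzd9 (1.45) were higher and Fzd4 (-1.24) lower, and Ror1, at 65 to 83 counts in control static replicates, had at most 1 count in DKO libraries and was not tested. The R-spondin axis controls the turnover of WNT receptors. Of its 7 genes tested 2 were higher, the receptors Lgr4 (2.70) and Lgr6 (2.49). Another 2 were lower, Lgr5 (-1.74, with 11 to 14 counts in control and 2 to 5 in DKO libraries) and Rnf43 (-1.15), with a median of -0.04 over the list. Of the other secreted or surface inhibitors 4 of 10 found were tested, and Apcdd1 and Kremen1 (-1.02), a DKK receptor, were lower, with a median of -0.24 over the list. Igfbp4 was higher but within 2-fold (0.685, edgeR adjusted p = 1.32e-05), and Notum (0.54, edgeR adjusted p = 0.114) did not pass. Sostdc1, the closest relative of Sost, had 0 counts in all libraries. Under FFSS (background 17.2%, or 8.25% in the higher direction) edgeR called 4 of the 13 receptors higher and 2 lower in DKO cells, with a median of 0.27. Of the 7 genes of the R-spondin axis 3 were higher and 1 lower (median -0.35), and of the 4 other inhibitors 0 were higher and 1 lower (median -0.29). Without control FFSS replicate 1 (background 20.1%) the receptors and the R-spondin axis had the same numbers of calls, with the median of the latter at 0.12, and Notum joined the inhibitors as higher.

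Factors reported to act on Sost were the last list, with 11 IDs tested. In DKO static cells Hdac9, a class IIa relative of the deleted genes, went from 128, 131 and 105 counts in control replicates to 512, 608 and 508 in DKO ones (log2 difference 2.23, edgeR adjusted p = 1.27e-08). Mef2d, a transcription factor that class IIa HDACs bind, was higher by 1.37, the others were not called (2 of 11, background 15.3%), and the median over the list was 0.27. Under FFSS 5 of 11 were higher and 1 lower in DKO cells (background 17.2%), with a median of 0.90. The higher ones were Hdac9 (4.09), Sp7 (2.07), Mef2c (1.76), Pth1r (1.58) and Mef2d (1.57), and the lower was 1 of the 2 IDs of Hdac4 (-1.48). Runx2 joined the higher ones without control FFSS replicate 1, and the median was 1.05. FFSS in control cells lowered 4 of the 11 (background 5.93%): Hdac9 (-2.22), Sp7 (-1.59), Mef2c (-1.46) and the PTH receptor Pth1r (-1.32), with a median change of -0.66 over the list beside 0.01 over all genes. Sp7 went from 10343, 9873 and 10488 counts to 6259, 2000 and 2347, so that replicate 1 again changed least. From the other lists Fzd5 (-1.40) and Nkd2 (-1.12) were called lower by FFSS in control cells. When control FFSS replicate 1 was left out, edgeR called 10 of the 42 lower, in place of 6 (background 11.3%). These were the same 6 genes, with larger changes such as -2.55 for Hdac9, -2.33 for Sp7 and -2.18 for Mef2c, and Rnf43, Tcf7, Lrp5 and Lgr6. In DKO cells (background 0.0872%) FFSS called 0 of the 42 by edgeR, limma-voom or DESeq2, with 8 at an unadjusted p under 0.05 in edgeR (13.5% of all genes) and 1 past the adjusted p in DESeq2, and the interaction (background 0.651%) was called for Hdac9 (1.86, edgeR adjusted p = 0.000953) and Fzd5 (1.16, edgeR adjusted p = 0.0387). The interaction was called for 10 of the 42 without control FFSS replicate 1 (background 7.6%), Hdac9 and Fzd5 (1.47) among them, with the largest value for Sp7 (2.26).

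The genes whose pattern over the libraries was most like that of Sost were found by Pearson's r of log2 CPM, without a test. Over the 12 libraries, which share 2 cell lines, the 5 highest among 14903 genes were Jup (0.996), Tm9sf1 (0.992), Col2a1, Tcf7l1 and Irx3 (0.990 each). Of the antagonists Dkk1 came next at rank 6 (0.989), followed by Frzb at rank 64 (0.980) and Wif1 at rank 219 (0.970), and 631 genes had an r above 0.95. Jup was at 33.0 ± 3.15 CPM in control static and 71.6 ± 3.15 CPM in DKO static libraries, so a like pattern did not mean a like size of change. Over the 6 control libraries alone the 5 highest of 12914 genes with a mean of at least 10 counts were Mesdc1 (0.982), Hps6, Nfs1, Grin2d and Gm13588, with Dkk1 at rank 138 (0.884).

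The neighbours of Sost on chromosome 11 had smaller differences or next to no counts. Dusp3, at 1045 to 1214 counts in static control libraries and at 1212 to 1330 in static DKO libraries, had a log2 difference of 0.21 (edgeR adjusted p = 0.194), and of 0.51 under FFSS (edgeR adjusted p = 0.00535). Meox1, 68.1 kb away, had at most 7 counts in any library, and 1700006E09Rik, beyond Dusp3, at most 2. Etv4, 177.1 kb away, was also called higher in DKO static cells, at 188 to 202 and 380 to 439 counts, a log2 difference of 1.11 (edgeR adjusted p = 3.39e-05). Under FFSS the difference of Etv4 was 0.26 (edgeR adjusted p = 0.133) and it rose by 1.25 with FFSS in control cells (edgeR adjusted p = 7.86e-05).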

How the data were processed

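The authors extracted total RNA, had libraries made from its mRNA and sequenced on a BGISEQ500 instrument as single-end reads, and the reads were aligned with STAR to mm9 with Ensembl annotation and counted per gene with HTSeq without strand. The deposited values are raw counts, neither normalised nor filtered, and reads with several alignments were not counted. Genes were named and placed by an mm9 annotation (GENCODE vM1), which matched 37168 of 37583 IDs (98.9%). The 5 summary lines of each library were kept out of totals and tests, and of the reads at 1 place 5.10% to 10.04% lay outside genes and 2.70% to 2.95% were ambiguous.

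Genes with 0 counts in 2 or more libraries were removed, as in the study's methods. Counts were fitted with edgeR 4.0.16 (R 4.3.3; TMM factors, robust quasi-likelihood test, all 12 libraries as 4 groups), and p-values were adjusted by Benjamini-Hochberg over 14904 genes. Calls needed more than a 2-fold change with an adjusted p under 0.05. The fit was tested on simulated data. CPM and RPKM used the reads of the tested genes times the TMM factor as library total, and log2 CPM a prior count of 2. All 10 genes were named. Apart from the factors under FFSS, at most 4 called genes with the largest changes were given as examples from each further list. For the factors reported to act on Sost, all IDs called between the lines under FFSS were named. Genes of the lists named for their role after their values were seen were Lef1, Lrp6, Ror1 and Sostdc1. Igfbp4 and Notum were named as the other tested inhibitors. Genes like Sost were the 5 with the highest r, and its neighbours the 2 nearest on each side. Alternatives were DESeq2 1.42.0, limma 3.58.1 (voom), other factors, filters and thresholds, a covariate, a block and left-out libraries. Hdac4 and Runx2 have 2 IDs each, and Draxin and Trabd2b were not found by symbol. Members and lists were chosen with earlier results of these data known.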

Additional observations from a re-analysis of the deposited data

How the results depend on the processing

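The differences between DKO and control cells kept their calls for Sost, Dkk1, Dkk3, Sfrp2, Frzb and Wif1 under every alternative that gave an adjusted p. DESeq2 gave none for Sost, nor for Sfrp4 under FFSS in DKO cells, and so called 5 of the 8 genes in place of 6 in both comparisons of the lines. Over the 40 gene results, 864 of 906 values kept their direction and their call (more than 2-fold with an adjusted p under 0.05), 16 gained a call, 0 lost one and 26 changed sign. On the adjusted p alone 28 values newly passed and 19 no longer passed: 8 for Dkk3 and 1 for Lrp4 under FFSS in control cells and 10 for Sfrp4 between the lines under FFSS.

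For FFSS in control cells 1 gene was called, against 3 with no limit on the fold, 2 with limma-voom, 2 without the robust estimate (Wif1 joined in both) and 4 without control static replicate 3 and control FFSS replicate 1 together, and from 1 to 4 with single libraries left out. Of all genes 5.93% were called, against 35.8%, 5.65%, 6.2%, 10.8% and from 3.3% to 11.3% in these fits. The share fell to 1.33% (198 genes in place of 884) with the share of reads outside genes as a covariate and to 2.71% (438 genes) with the libraries of the comparison only, with 1 gene of the set called in both. The interaction had 0, against 3 without those libraries together, and from 0 to 3 with single libraries left out, where control FFSS replicate 1 decided the calls. Of all genes 0.651% were called, against 7.0% and from 0.28% to 7.6%. With single libraries left out the change in control cells ran from -2.17 to 1.32 for Sost and from -0.025 to 0.34 for Sfrp2. It ran from -0.94 to 0.042 for Frzb and from -2.39 to -0.61 for Dkk1. The interaction ran from -1.45 to 2.04 for Sost and from -0.42 to 0.56 for Frzb, and was -0.094 for Frzb without both libraries. The static difference between the lines ran from -0.44 to 0.00086 for Sfrp4 and from -0.076 to 0.034 for Lrp4.

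The share of reads outside genes as a covariate turned several directions. FFSS in control cells then gave 1.52 for Sost, -0.11 for Dkk3, -0.49 for Sfrp2, 0.16 for Frzb and 0.14 for Wif1, and FFSS in DKO cells 0.69 for Sost, 0.38 for Wif1 and 0.12 for Lrp4. The interaction became -0.83 for Sost, 0.12 for Sfrp2 and -0.27 for Frzb, and the static difference of Lrp4 0.34. The share differed between static and FFSS libraries of each line and between the static libraries of the lines. Its effect therefore cannot be told apart from those of FFSS and line, and the cause was not tested.

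Samples with the same replicate number did not deviate together (mean r of 0.00226 over 18 pairs, from -0.0603 to 0.0631), so the numbers did not pair them. With the replicate block, 40 of 40 gene results kept their call and direction, and the numbers of genes called stayed at 1 for the FFSS effect in control cells, 0 for that in DKO cells and for the interaction, and 6 for each comparison of the lines. Counts were low for Dkk1 and Frzb in control cells, at 2 to 27, for Sfrp4 in all groups, at 13 to 49, and for Sost in control cells, at 2 to 46 in 4 of 6 libraries. Sfrp4 was still called in control cells, and Dkk1 was called there without control FFSS replicate 1 (-2.39, edgeR adjusted p = 0.000109).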
